A study of Homo sapiens with 6 samples.

Results

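The transcripts described here are those of GPR3, its relatives GPR6 and GPR12, and a set of enzymes and transcription factors that make, break down or read out cyclic AMP: the adenylyl cyclase ADCY7, the phosphodiesterases PDE4A, PDE4B, PDE4D and PDE7A, and the transcription factors CREB1 and CREM. They were picked by gene symbol, and where a symbol has several probe sets the one of highest mean signal stands for it. Of the 10 genes, 9 had a named probe set, 1 each, among 17687 named genes in all. No probe set was named CREM in the annotation used here. GPR3 brought the set into view, because its change ranked 3 of 16086 probe sets by p in the same comparison. The changes of these genes are therefore a description, and their values give no independent support to one another.

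RNA came from Jurkat, a human cell line established from a T-cell acute lymphoblastic leukaemia, and was hybridised to 6 Affymetrix arrays, 1 per sample. A serum percentage of 10 is recorded for all 6 samples alike. All cells were kept without serum for 90 min. The untreated group (n = 3) then received nothing, and the CXCL12 group (n = 3) received the chemokine CXCL12 at 100 ng/ml for 15 min. No vehicle group is recorded, so CXCL12 cannot be told apart from the addition itself or the added 15 min. The titles call the samples biological replicates without saying whether they were separate cultures, so p-values reflect only how these samples vary, and that variation may be technical. A single line was used, so the data describe Jurkat cells and not T cells of a donor.

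GPR3, GPR6 and GPR12 are closely related receptors that activate the stimulatory G protein Gs without an added ligand, which raises cyclic AMP. Adenylyl cyclases make cyclic AMP and phosphodiesterases of the PDE4 and PDE7 families hydrolyse it. Cyclic AMP activates protein kinase A, which phosphorylates CREB1 and CREM, factors that bind cyclic AMP response elements in promoters. In T cells cyclic AMP restrains antigen receptor signalling. CXCR4, the receptor for CXCL12, couples mainly to Gi, which inhibits adenylyl cyclases.

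The promoters are shown first because 3 of the measured genes, GPR3, GPR6 and PDE4A, have the letters TGACGTCA close to a start site. These are the letters of a cyclic AMP response element, called the element below. The 2 groups of arrays were apart for GPR3 and overlapped for GPR6 and PDE4A. Whether the letters bear on these changes was not tested. Each line below runs 5′ to 3′ on the plus strand, which is the strand of the gene, and holds the 120 bases before TGACGTCA and the element itself. Capitals mark TGACG on either strand, read as CGTCA where it lies on the other strand. The sequences are from RefSeq, build GRCh38.p14.
GPR3 (chr1:27392466-27392593): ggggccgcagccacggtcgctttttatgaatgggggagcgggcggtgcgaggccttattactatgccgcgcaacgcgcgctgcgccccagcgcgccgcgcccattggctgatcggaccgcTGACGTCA
GPR6 (chr6:109978112-109978239): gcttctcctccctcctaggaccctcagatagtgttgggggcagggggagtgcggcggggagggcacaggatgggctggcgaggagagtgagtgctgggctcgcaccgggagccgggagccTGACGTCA
PDE4A (chr19:10416650-10416777): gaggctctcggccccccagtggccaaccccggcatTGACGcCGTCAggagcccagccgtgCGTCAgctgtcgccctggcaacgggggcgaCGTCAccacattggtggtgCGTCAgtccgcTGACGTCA

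The element began 36 bases before the start of GPR3 and 79 bases before that of GPR6, and in PDE4A it began 3 bases before the start and ran across it. In PDE4A it followed 5 further copies of TGACG on one strand or the other. GPR3 had 1 further copy in its window, which began 191 bases before the start and lies upstream of the run shown, and GPR6 had 0. PDE4A has several start sites, and the element lay at 1 of its 5 windows. RefSeq windows of 300 bases, from 250 before to 50 after a start, were at hand for 9 of the 10 genes, all but PDE7A. TGACGTCA, which reads the same on both strands, was found in at least 1 window of 4 of these 9 genes (GPR3, GPR6, PDE4A and CREM), and in 614 of 27305 genes in all (2.25%). Counted by window, 5 of 31 held it, against 1.85% of 35116 windows. The 2 windows of CREM that held it overlap and share a single element. The shorter TGACG, which lies within TGACGTCA, was found in 5 of the 9 genes on either strand, against 28.4% of all genes. Counted by window it was in 7 of 31, against 24.6% of all windows, so by window it was not more frequent here. GPR12, PDE4B, CREB1 and ADCY7 had no TGACG in their windows, which says only that these letters were not there. TGACTCA, the site of AP-1 factors, was found in GPR3, PDE4D and ADCY7 and in 6.05% of all genes. Other strings were searched too. GCGGGGGCG was found in GPR12, PDE4A and CREB1 (6.14% of all genes) and GCGTGGGCG in PDE4A (0.96%). The CArG box (CC, a run of A or T, then GG) was found in PDE4D (1.6%). CCAAT was found in 6 of the 9 genes, GPR3 among them (39.7%), but by window in 8 of 31, against 34.6% of all windows. By window TGACTCA and GCGGGGGCG were each in 3 of 31, against 4.95% and 5.07%. GCGTGGGCG and the CArG box were each in 1, against 0.795% and 1.29%. A gene with more windows has more chances of a match, and PDE4D had 8, CREM 7, PDE4B 6 and PDE4A 5. Shares by gene are therefore not like for like. A match is a string of letters and was not tested for binding.

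GPR3 had about 1.92 times the untreated signal after CXCL12, with the groups well apart. On the log2 scale its probe set read 6.10, 5.98 and 5.75 in untreated replicates 1, 2 and 3 and 7.06, 6.77 and 6.82 in CXCL12 replicates 1, 2 and 3. Every CXCL12 array was above every untreated array, and the nearest pair was 0.67 apart. The untreated readings were modest, below the array medians (6.18 to 6.22) and the mean level of B cell markers in untreated arrays (6.38 to 6.46). Levels of different genes are not comparable, and whether GPR3 is expressed without CXCL12 was not tested. The group means were 5.95 ± 0.18 and 6.88 ± 0.16 (SD, n = 3 each), a log2 difference of 0.94 with a limma standard error (SE) of 0.14 and a 95% interval from 0.64 to 1.23, or 1.56-fold to 2.35-fold. The gene did not pass the threshold of 0.05 after Benjamini-Hochberg adjustment over all 16086 tested probe sets (limma adjusted p = 0.0865). It did pass with array weights (limma adjusted p = 0.0102), with the dimmer 50% of probe sets removed (0.0273) and with a trended robust prior (0.0467), and in no other of the 14 alternative fits, where the highest adjusted p was 0.582.

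None of the other measured genes of the set had groups that stood apart. Of the 7 that were bright enough to be tested, 0 passed the adjusted threshold, which 0.0124% of all tested probe sets did, and 1 had an unadjusted limma p under 0.05, as 4.73% of all tested probe sets did. Every CXCL12 array was above every untreated array for 1 of the 7, GPR3, and this held for 5.05% of all tested probe sets; the opposite order held for 0 of the 7 and for 4.48% of all tested probe sets. Nothing is read from these counts, because the set was chosen with GPR3 known.

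**Figure D1:**
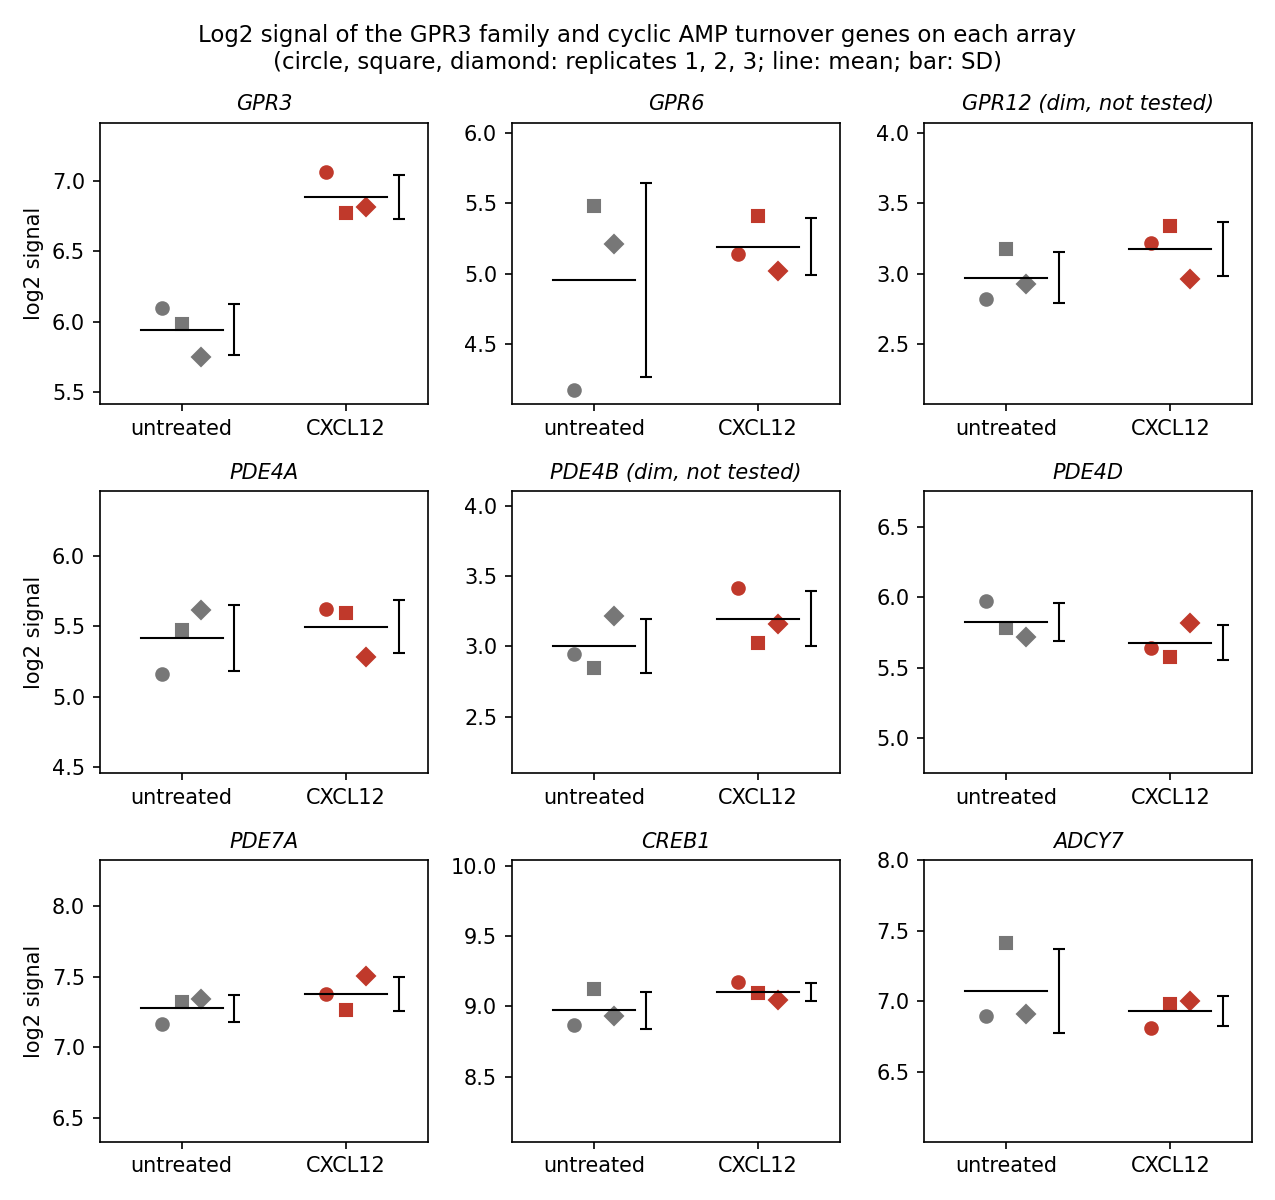
Log2 signal (vertical axis) of 9 genes on each array, by group (horizontal axis). Points are single arrays, with replicates 1, 2 and 3 as circle, square and diamond. Lines are group means and bars SD (n = 3 each). Each panel spans 2 log2 units around its own centre, and levels of different genes are not comparable. The groups are apart for GPR3 and overlap in the other 8 panels, and untreated replicate 1 lies far below the other arrays for GPR6.

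The relatives of GPR3 differed in how well they were measured. GPR6 read 4.17, 5.48 and 5.21 in the untreated arrays and 5.14, 5.41 and 5.02 in the CXCL12 arrays. The groups overlapped, and untreated replicate 1 was below the limit for dim probe sets, a log2 mean of 4.44, while the other 5 arrays lay between 5.02 and 5.48. Its log2 difference was 0.24 (95% interval -0.34 to 0.81, limma adjusted p = 0.996), and it turned to -0.15 without untreated replicate 1 and was 0.50 without untreated replicate 2. The interval runs from 0.792-fold to 1.75-fold and is the widest of the 7 tested genes. GPR12 was dim on all arrays, with 2.82, 3.17 and 2.92 in the untreated and 3.22, 3.34 and 2.96 in the CXCL12 arrays, and it was not tested. Whether the change of GPR3 differed from that of GPR6 was not tested.

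Untreated replicate 1 also stood apart over the whole table. Its mean correlation with the other arrays over the tested probe sets was 0.982, against 0.987 to 0.989 for the others. GPR3 did not rest on it: without this array the log2 difference of GPR3 was 1.02 (95% interval 0.71 to 1.32, limma adjusted p = 0.0597). The arrays had median log2 signals between 6.18 and 6.22. The 12 T cell markers were all brighter than the dim limit, with a mean log2 level of 9.14 to 9.17 in untreated and 9.16 to 9.21 in CXCL12 arrays. Of 27 named markers of B, myeloid, erythroid, platelet, NK, stromal and epithelial cells, 20 were also above that low limit, so the limit is no test of whether a gene is expressed. The mean level of these other lists overlapped between the groups, from 6.38 to 6.46 in untreated and 6.32 to 6.42 in CXCL12 arrays for B cell markers and from 4.93 to 5.01 and 4.93 to 5.00 for myeloid markers. The ranges were 5.21 to 5.35 and 5.22 to 5.44 for erythroid and platelet markers, 4.99 to 5.24 and 4.96 to 5.11 for NK cell markers, and 6.21 to 6.35 and 6.26 to 6.35 for stromal and epithelial markers. In RNA from a bulk culture, fewer cells that carry a transcript and less of it per cell cannot be told apart.

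The phosphodiesterases, which remove cyclic AMP, had small differences of either sign. PDE4A read 5.16, 5.47 and 5.62 in the untreated samples and 5.62, 5.59 and 5.28 with CXCL12, a log2 difference of 0.08 (95% interval -0.24 to 0.41) that became -0.05 without untreated replicate 1. The lowest array of PDE4A was in one group and the next lowest in the other, so the groups overlapped over nearly their whole range. PDE4D read 5.98, 5.78 and 5.72 in the untreated samples and 5.64, 5.58 and 5.82 with CXCL12, a difference of -0.15 (95% interval -0.42 to 0.13). Replicates 1 and 2 of CXCL12 were below all untreated arrays and CXCL12 replicate 3 was above 2 of them, and without untreated replicate 1 the difference was -0.07. PDE7A, the enzyme of this set that resists PDE4 inhibitors, read 7.17, 7.32 and 7.34 in the untreated samples and 7.38, 7.26 and 7.50 with CXCL12, a difference of 0.10 (95% interval -0.16 to 0.37) that went to 0.04 when CXCL12 replicate 3 was left out and to 0.16 when CXCL12 replicate 2 was. PDE4B, a PDE4 enzyme of immune cells, was dim here. It read 2.94, 2.85 and 3.22 in the untreated samples and 3.41, 3.02 and 3.16 with CXCL12 and was not tested. The limma adjusted p was 0.996 for PDE4A, PDE4D and PDE7A.

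ADCY7 and CREB1 also had small differences of opposite sign. ADCY7, a cyclase abundant in blood cells, read 6.90, 7.41 and 6.91 in the untreated samples and 6.81, 6.98 and 7.00 with CXCL12, a log2 difference of -0.14 (95% interval -0.48 to 0.19, limma adjusted p = 0.996). Untreated replicate 2 was its highest array, and without that array the difference was 0.03. CREB1 read 8.87, 9.12 and 8.93 in the untreated samples and 9.17, 9.09 and 9.04 with CXCL12, a difference of 0.13 (95% interval -0.14 to 0.39, limma adjusted p = 0.996). All 3 CXCL12 arrays of CREB1 were above the untreated mean, but untreated replicate 2 was above 2 of them. Leaving out untreated replicate 1 gave CREB1 a difference of 0.08, and leaving out untreated replicate 2 gave 0.20. CREB1 is regulated chiefly by phosphorylation, which these arrays do not measure.

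The intervals limit how large an undetected change of these transcripts could be. For 5 of the 7 tested genes (PDE4A, PDE4D, PDE7A, CREB1 and ADCY7) the whole 95% interval was closer to no change than 1.5-fold in both directions, as it was for 89.9% of all tested probe sets. The 6 tested genes other than GPR3 had log2 differences from -0.15 to 0.24 with a median of 0.09. With GPR3 the median over the 7 was 0.10, against 0.00228 over all tested probe sets, and it was -0.05 without untreated replicate 1. Of the 7 differences, 5 were positive and 2 negative.

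**Figure D2:**
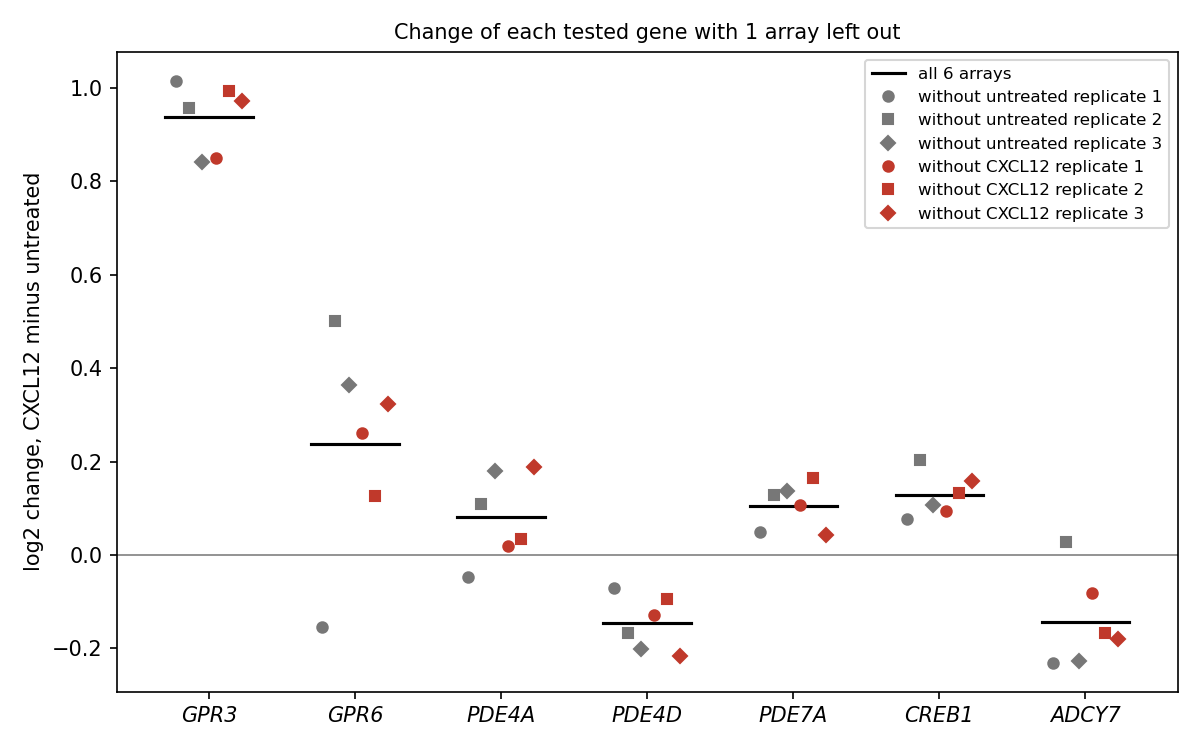
Log2 change, CXCL12 minus untreated (vertical axis), of the 7 tested genes (horizontal axis) with all 6 arrays (line) and with 1 array left out (points, by group colour and replicate shape). GPR3 stays between 0.84 and 1.02. GPR6 and PDE4A cross 0 without untreated replicate 1, and ADCY7 without untreated replicate 2.

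The other genes of the pathway were examined from lists drawn up by function. Of 120 listed genes 109 had a named probe set, 35 of these were dim and 74 were tested, 39 with a positive and 35 with a negative change. The median log2 change of the 74 was 0.01. One gene passed the adjusted threshold, EGR1, which rose, and 0 fell, where 0.0124% of all tested probe sets passed. An unadjusted limma p under 0.05 was found for 5 of the 74, against 4.73% of all tested probe sets. EGR1 encodes a zinc-finger transcription factor that both ERK and cyclic AMP signalling can induce. It read 5.94, 5.91 and 6.12 in the untreated samples and 8.13, 7.80 and 7.98 with CXCL12, a log2 change of 1.98 (SE 0.13, limma adjusted p = 4.52e-05). Its groups lay 1.68 apart at their nearest arrays. Every CXCL12 array was above every untreated array for 5 of the 74 genes and below for 6, against 5.05% and 4.48% of all tested probe sets.

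Among the tested cyclic AMP response genes other than EGR1, 9 did not pass. NR4A1, an orphan nuclear receptor that cyclic AMP can induce, read 7.14, 7.01 and 6.96 in the untreated samples and 7.54, 7.21 and 7.12 with CXCL12, a difference of 0.26 (95% interval -0.04 to 0.55, limma adjusted p = 0.996). Its CXCL12 replicate 1 was the highest array and CXCL12 replicate 3 was just below untreated replicate 1, and without CXCL12 replicate 1 the difference was 0.13. The list of 10 tested genes had 8 positive and 2 negative changes and a median of 0.16, with NR4A2, NR4A3, PPARGC1A and BDNF dim and PER1 and AREG without a named probe set. SIK1 and EGR1 respond to more than one pathway, so the list is not specific to cyclic AMP. SIK1 is also on the list of CREB partners and coactivators and counts in both medians.

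**Figure D3:**
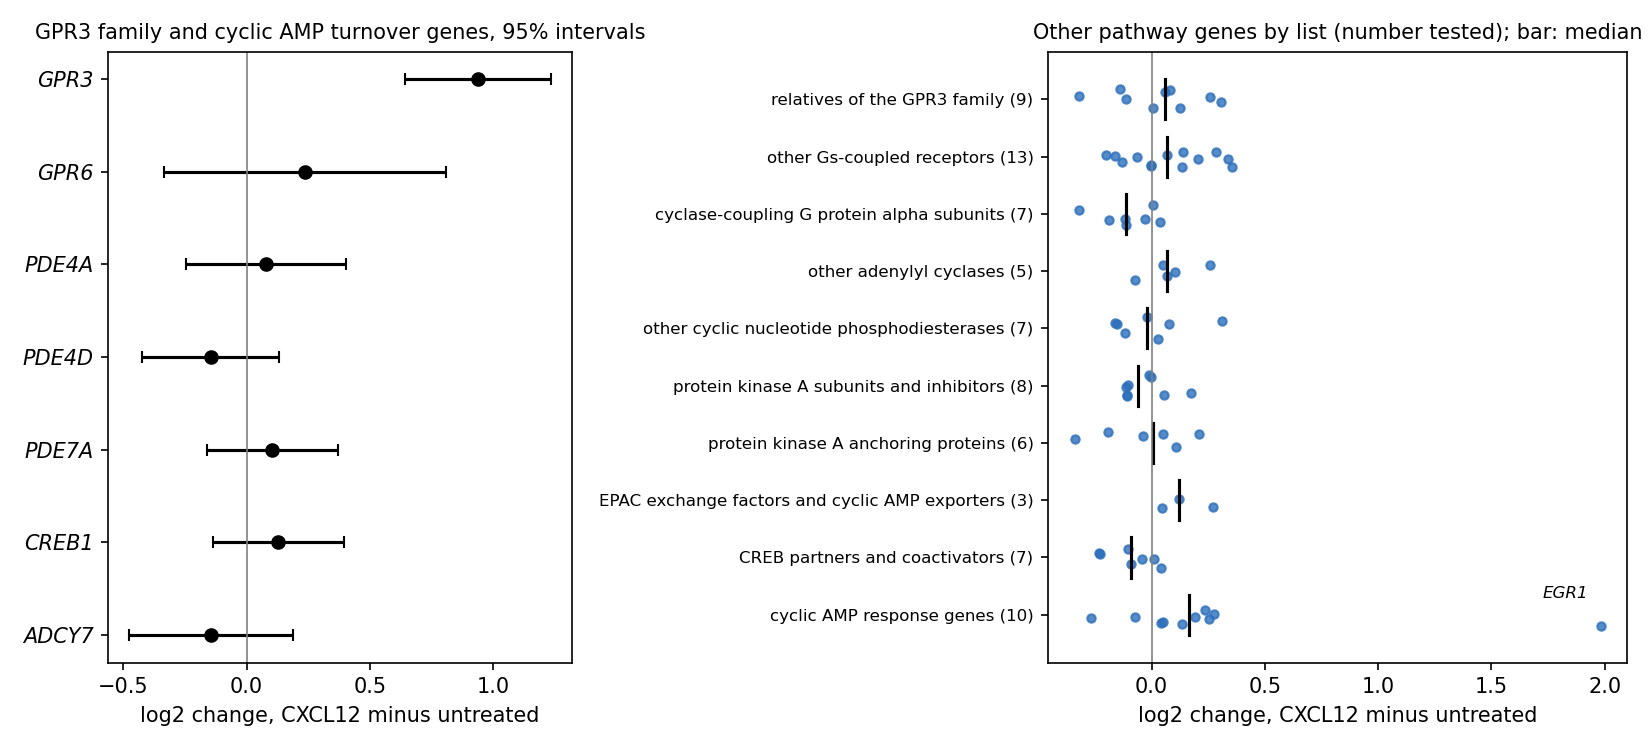
Log2 change, CXCL12 minus untreated (horizontal axes). Left, the 7 tested genes of the set with 95% intervals from limma. Right, the other tested pathway genes by list, with the list's median as a bar. Each gene is 1 point, except SIK1, which is drawn under both of its lists. GPR3 is the 1 gene of the left panel whose interval excludes 0, and EGR1, at 1.98, lies far to the right of the other genes of the right panel.

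Receptors and G proteins upstream of cyclic AMP had 0 genes past the adjusted threshold. Among 13 tested receptors that couple to Gs, the smallest p belonged to AVPR2, the renal vasopressin receptor, and GIPR, a receptor for a gut hormone. AVPR2 read 6.23, 6.17 and 6.42 in the untreated samples and 6.51, 6.73 and 6.66 with CXCL12, a difference of 0.36 (95% interval 0.08 to 0.63, limma adjusted p = 0.996). GIPR was at 4.65 ± 0.11 without and 4.99 ± 0.11 with CXCL12 (SD, n = 3 per group), a difference of 0.34 near the dim limit. Neither passed, and both were picked for the smallest p of their list, which favours groups that do not overlap. PTGER4, a prostaglandin E2 receptor of T cells, was at 8.19 ± 0.21 without and 8.19 ± 0.25 with CXCL12 (SD, n = 3 per group), and is named here after its values were seen.

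The receptors related to GPR3 in sequence, for sphingosine 1-phosphate, lysophosphatidic acid, cannabinoids and melanocortins, gave 9 tested genes with 6 positive and 3 negative changes and a median of 0.06. S1PR1, the receptor that draws T cells out of lymphoid tissue, read 6.12, 5.88 and 5.87 in the untreated samples and 5.74, 5.69 and 5.48 with CXCL12. All 3 CXCL12 arrays were below the untreated ones, with a difference of -0.32 (95% interval -0.60 to -0.04). The gene missed the threshold (limma adjusted p = 0.996), and being picked for the smallest p of its list favours groups apart. MC3R, a melanocortin receptor, had a difference of 0.31 with an interval from -0.07 to 0.69. It read 4.13, 4.87 and 4.42 in the untreated samples, near the dim limit of 4.44. Single arrays moved the difference, to 0.14 without untreated replicate 1 and to 0.50 without untreated replicate 2.

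The G protein alpha subunits that act on adenylyl cyclases gave 7 tested genes, 2 with positive and 5 with negative changes and a median of -0.11. GNAO1, of the Gi/o class, read 7.26, 6.99 and 6.96 in the untreated samples and 6.63, 6.78 and 6.84 with CXCL12, a difference of -0.32 (95% interval -0.60 to -0.04, limma adjusted p = 0.996). Its groups did not overlap, which its choice for the smallest p of the list favours. GNAZ, of the same class, had -0.19 (95% interval -0.50 to 0.13). Leaving out replicate 1 of either group brought GNAZ nearer to 0, to -0.08 (untreated) and -0.09 (CXCL12), and leaving out untreated replicate 3 gave -0.31. GNAS, which encodes the Gs subunit that GPR3 acts through and was named for that role after its value was seen, had a difference of 0.00631 (95% interval -0.30 to 0.31).

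Enzymes and effectors of cyclic AMP had no gene past the adjusted threshold in any list. The 5 other tested cyclases had a median of 0.07, with ADCY4 at 0.26, or 0.16 without untreated replicate 2, and ADCY9 at 0.10, which crossed 0 without untreated replicate 1. The 7 other genes tested from the phosphodiesterase list, which is not confined to cyclic AMP or to catalytic subunits, had a median of -0.02. Among them PDE4C was at 0.31 (95% interval -0.11 to 0.74) and PDE3B at -0.15. PDE4C was near the dim limit, with 4.19, 4.94 and 4.73 in the untreated samples. Its difference depended on single arrays, with 0.10 when untreated replicate 1 was left out, 0.15 when CXCL12 replicate 3 was and 0.47 when untreated replicate 2 was. PDE3B read 8.26, 8.32 and 8.29 in the untreated samples and 8.20, 8.04 and 8.18 with CXCL12, lower in all 3 CXCL12 arrays by a small amount. It too was named for a small p, which favours such an order. The median of 8 protein kinase A subunits and inhibitors was -0.06, with the regulatory subunits PRKAR1A at 0.17 (0.10 without CXCL12 replicate 3) and PRKAR2B at -0.11 (-0.05 without untreated replicate 1), and all 8 intervals lay within a 1.5-fold change.

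The anchoring proteins that place protein kinase A in the cell had a median of 0.01 over 6 tested genes, with AKAP9 at -0.34 (95% interval -0.77 to 0.09) and AKAP11 at 0.21. AKAP9 was highest in untreated replicate 1, at 7.89, against 7.10 and 7.17 in the other untreated arrays, and without that array its difference was -0.09. The difference of AKAP11 was 0.10 without CXCL12 replicate 3 and 0.32 without CXCL12 replicate 2. The 3 tested genes for EPAC exchange factors and cyclic AMP exporters all had positive differences, none past the threshold. The exchange factor RAPGEF3 was at 0.12, with 0.07 without untreated replicate 1 and 0.20 without untreated replicate 3. The exporter ABCC5 was at 0.27, which became -0.07 without untreated replicate 1 and 0.48 without untreated replicate 3 or CXCL12 replicate 2. The 7 tested partners and coactivators of CREB had 2 positive and 5 negative changes and a median of -0.09. CRTC2, a coactivator that moves to the nucleus when cyclic AMP rises, had -0.23 and SIK2, a kinase that holds it in the cytoplasm, had -0.23. For both, every CXCL12 array was below every untreated array, as for 4.48% of all tested probe sets, and the limma adjusted p was 0.996. Both were picked for the smallest p of their list, which favours groups that do not overlap.

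The genes whose profile over the 6 arrays was nearest to that of GPR3 were SGK1, KLF10, CSRNP1, HSPH1 and DUSP6, in that order. Likeness was the root mean square difference in log2 signal after each gene was centred on its own mean, and it was 0.15 for SGK1, 0.19 for KLF10, 0.20 for CSRNP1 and 0.22 for both HSPH1 and DUSP6. SGK1, a kinase of the AKT family, read 5.58, 5.67 and 5.71 in the untreated samples and 6.72, 6.30 and 6.45 with CXCL12. KLF10 and CSRNP1 encode transcription factors, HSPH1 a chaperone and DUSP6 a phosphatase of ERK. Their differences, 0.83, 0.71, 0.70, 0.66 and 0.57 in the order of likeness, follow from the choice by likeness and are not support for GPR3. Like GPR3, 4 of the 5 had their highest signal in CXCL12 replicate 1, and HSPH1 had it in replicate 3. TGACGTCA was found in none of the windows of SGK1, CSRNP1, HSPH1 and DUSP6, 7 in all, and in 1.85% of all windows. Nothing is read from its absence in so few windows. The shorter TGACG was found in 1 window of CSRNP1 and 1 of HSPH1, and in 24.6% of all windows. KLF10 had no window.

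**Figure D4:**
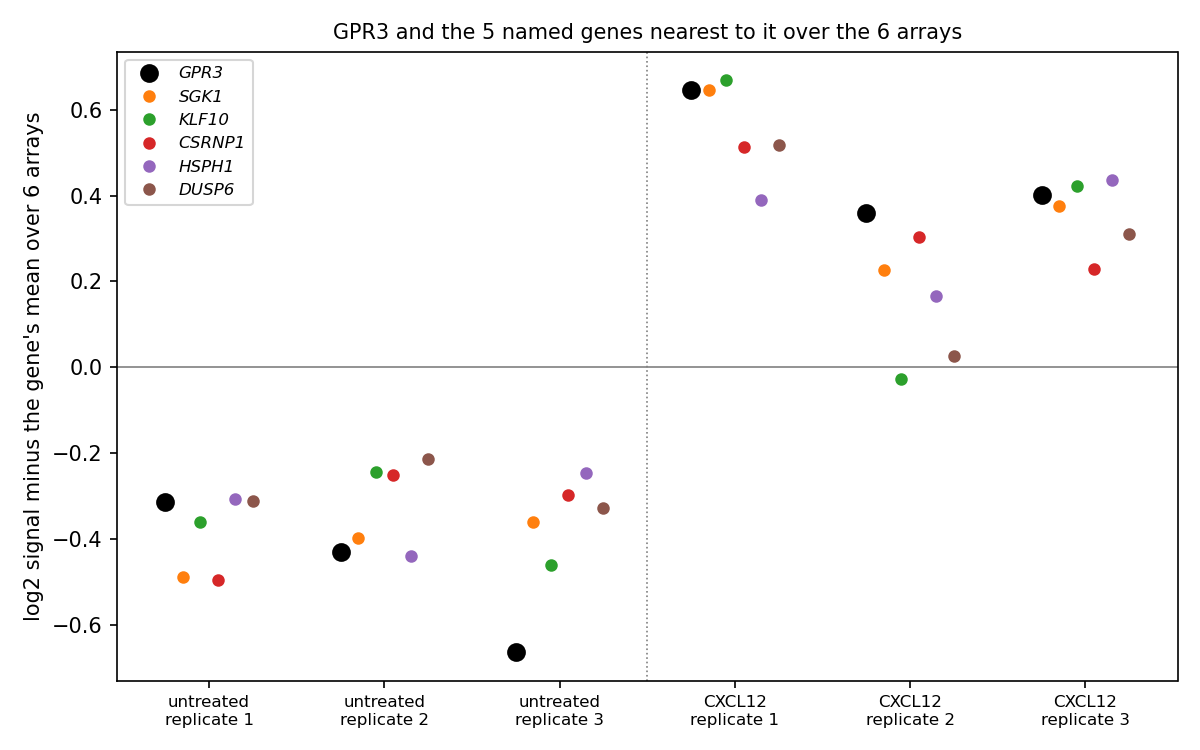
Log2 signal minus the gene's own mean over the 6 arrays (vertical axis) for GPR3 and the 5 named genes nearest to it, on each array (horizontal axis). All 6 genes are below their mean in the 3 untreated arrays and, apart from KLF10 in CXCL12 replicate 2, above it in the CXCL12 arrays; CXCL12 replicate 1 is the highest array for 5 of the 6.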

How the data were processed

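Per the labels' protocols, Trizol was used to extract total RNA, which a whole-transcript reagent kit labelled. The deposited table holds the authors' log2 signal per probe set and array. The submitters' processing notes name RMA (background subtraction, normalization between arrays and summary per probe set) and the Transcriptome Analysis Console, with settings, versions and genome build not given in the sources used here. Of 21448 probe sets, 17709 had 1 gene symbol in the platform annotation, which can be old, and 3739 are unnamed here. The 25% of probe sets with the lowest mean were left out as dim. The comparison was fitted with limma 3.58.1 (R 4.3.3) on the remaining 16086 probe sets and all 6 arrays, without covariates, two-sided, with Benjamini-Hochberg adjustment over all of them. Intervals come from that fit. The fit was tested on 20 simulated sets with 200 changed genes. It recovered 41.6% of log2 changes of 0.5, 92.7% of 0.75 and 99.8% of 1, with 6.95% false calls. These rates need not hold for the deposited data, where 2 probe sets passed. The number of arrays limits the precision. Scanner files were not used here.

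The genes, the lists and the tests were chosen with earlier results of these data known. All 10 genes of the set are named; of each pathway list, genes past the threshold and the 2 with the smallest p are named, and for GPR3 the 5 nearest genes. Promoter windows were matched by symbol and searched on both strands.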

Additional observations from a re-analysis of the deposited data

How the results depend on the processing

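GPR3 kept its direction in all 14 alternative fits (log2 change 0.84 to 1.03, limma adjusted p from 0.0102 to 0.582). It passed in 3 of them: with the dimmer 50% of probe sets removed (0.94, adjusted p = 0.0273), where fewer probe sets were tested, with array weights (1.03, adjusted p = 0.0102) and with a trended robust prior (0.94, adjusted p = 0.0467). In these fits the count of genes of the set past the threshold was 1 in place of 0. The count over all probe sets, 2, was 1 with no filter, median centring or cyclic loess, 3 with the dimmer 50% removed or the trended robust prior, 4 with array weights, and 1 to 2 when each array was left out. With each array left out, GPR3 ran from 0.84 to 1.02 and passed in none, with the highest adjusted p without CXCL12 replicate 1. With the replicate number as a block, GPR3 had 0.94 (adjusted p = 0.151) and 2 probe sets passed. The labels state no pairing, and deviations of same-numbered arrays correlated at -0.19, -0.11 and 0.11. The median over the tested genes of the set ran from -0.05 (without untreated replicate 1) to 0.16, and was 0.000269 with array weights. Signs turned for GPR6 (-0.15 to 0.50 when each array was left out), PDE4A (-0.0474 to 0.19, and -0.00532 with array weights), ADCY7 (-0.23 to 0.0274), ADCY9 (-0.0234 to 0.19) and ABCC5 (-0.0687 to 0.48), none past the threshold. The cause was not tested. Each gene of the set had 1 named probe set, so averaging probe sets gave the same values. EGR1 passed in all 14 fits. A 95% interval, which is not adjusted for the number of probe sets, reached 0.29 to each side at the median (1.23-fold). Smaller changes are hard to see with 3 arrays a group. Larger ones can also miss the adjusted threshold, as GPR3 did at 0.94 in the main fit.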
